A study of Mus musculus with 96 samples.

Results

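Uap1l1 and Uap1, paralogous genes of the last step of UDP-GlcNAc synthesis, were followed in the liver and the islets of mice on a high-fat diet (HFD) or a chow diet (CD). They are 2 of the 20155 genes with values in a table of 21990 genes, and they were taken from it by symbol. Uap1l1 was chosen by its liver values, because HFD livers held more of it than CD livers in most weeks, and Uap1 was taken along as its paralog. The liver values of Uap1l1 are therefore given as a description and without a test. The tests below concern Uap1 in both tissues, Uap1l1 in islets, and the other genes of amino sugar and nucleotide sugar metabolism.

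Male C57BL/6N mice, bought at 4 weeks of age, were fed diets that differed in fat, which was 13.5% in CD (the chow LabDiet 5001) and 60% in HFD (D12492 of Research Diets). The chow also differs from the HFD in its protein, carbohydrate, mineral and vitamin ingredients, so the effect of fat and of the other ingredients cannot be told apart. Islets and liver were collected from 4 mice per diet at weeks 4, 8, 12, 16, 20 and 24 of the diet, so that 48 mice gave 96 libraries in 24 groups. The labels name no engineered allele and no other agent in any group. Islets were picked by hand after collagenase digestion and liver was homogenized from a fixed region, so each library is a mixture of cell types, and fewer cells of a type cannot be told apart from less RNA per cell. Expression was given as FPKM, fragments mapped to a gene, scaled by its transcript length and by all mapped fragments of the library, which allows levels of different genes to be set side by side. Each mouse is named by diet and number, and one name stands for the islets and the liver of the same animal.

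UDP-GlcNAc is the sugar donor for N-glycans, O-GlcNAc on nuclear and cytosolic proteins, GPI anchors and glycosaminoglycans. It is made by the hexosamine pathway, in which GFPT1 or GFPT2 turns fructose 6-phosphate into glucosamine 6-phosphate, GNPNAT1 acetylates it, PGM3 moves the phosphate, and UAP1 joins the product to UTP. The pathway draws on glucose, glutamine, acetyl-CoA and UTP, and liver feeds its product into a large output of secreted glycoproteins. UAP1L1 is the paralog of UAP1 and is much less studied. The annotation of the table placed both genes in the same KEGG ortholog group of UDP-N-acetylglucosamine/UDP-N-acetylgalactosamine diphosphorylases.

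On GRCm38, Uap1l1 (Entrez 227620) lies on chromosome 2 at 25361492 to 25365626 and Uap1 (Entrez 107652) on chromosome 1 at 170141223 to 170174964, both on the minus strand. In GENCODE M21 the longest transcript of Uap1l1, Uap1l1-201, has 9 exons and that of Uap1, Uap1-202, has 10 exons. No annotated gene overlapped either of them. The annotated transcripts of Uap1l1 hold 4175 distinct stretches of 25 bases and those of Uap1 hold 4051, of which 0 were shared. The deposited annotation has 1 transcript of Uap1l1, of 1690 bases, and 6 of Uap1, the longest of 3084 bases. FPKM are scaled by transcript length, so the level of Uap1l1 relative to Uap1 depends on these models.

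Tissue labels were checked on marker genes. The 9 hepatocyte markers summed to between 37000 and 79700 FPKM in liver libraries and to at most 1070 FPKM in islet libraries, while insulin (Ins1 and Ins2 together) lay between 550000 and 960000 FPKM in islets. Insulin transcripts were also found in liver, with a median of 7.46 FPKM in 46 libraries, and 2 CD livers stood apart, CD306 with 3540 FPKM and CD407 with 2410 FPKM. Ins1, Ins2, Iapp and Gcg were called lower in HFD liver, while Pdx1, Mafa and Ucn3 were under 0.1 FPKM in at least 24 of the 48 livers. The Uap1l1 values of CD306 and CD407, 2.68 and 3.48 FPKM, were within the range of the CD livers. The mean HFD difference of Uap1l1 in liver was 1.46 without CD306 and 1.48 without CD407, against 1.46 with both. Over all genes, limma called 42.6% of 10879 genes for the HFD effect averaged over the 6 weeks in liver and 38.6% of 12378 genes in islets, at an adjusted p under 0.05. Of the liver calls 84.1% were higher in HFD, and 55.7% were after each library was divided by its median ratio to the others. Of the islet calls 43.1% were higher, and 77.6% were when insulin was left out of each library's total.

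Uap1l1 in liver was low in all CD groups and in HFD livers at week 4, and higher in HFD livers from week 8 on. At week 4 the CD livers held 1.81, 1.95, 3.74 and 3.83 FPKM and the HFD livers 2.35, 2.35, 2.38 and 2.98 FPKM. The 4 HFD values lay inside the CD range, and the difference in mean log2(FPKM + 1) was -0.08 ± 0.20 (SE, n = 4 per diet), and its sign turned when either of the high CD livers was left out, to 0.04 without CD103 and 0.04 without CD104.

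At week 8 the CD livers held 1.30, 1.59, 1.64 and 1.67 FPKM, and the HFD livers held 2.20, 6.76, 7.09 and 7.29 FPKM. The other 3 HFD mice were close together, and HFD217 was far below them while still above every CD liver. At week 12 the values were 1.75, 2.46, 2.68 and 2.97 FPKM in CD and 4.85, 8.52, 9.33 and 11.5 FPKM in HFD, again without overlap.

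At week 16 the CD livers held 1.38, 1.84, 2.47 and 3.48 FPKM and the HFD livers held 11.2, 12.2, 12.4 and 13.7 FPKM, the tightest HFD group of the later weeks. At week 20 the CD values were 1.87, 2.45, 3.02 and 4.83 FPKM and the HFD values 10.2, 13.2, 17.2 and 28.1 FPKM, and at week 24 they were 3.0, 3.86, 4.07 and 4.37 FPKM in CD and 11.8, 13.5, 21.0 and 23.8 FPKM in HFD. The highest liver value of the series, 28.1 FPKM, came from HFD517.

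**Figure D1:**
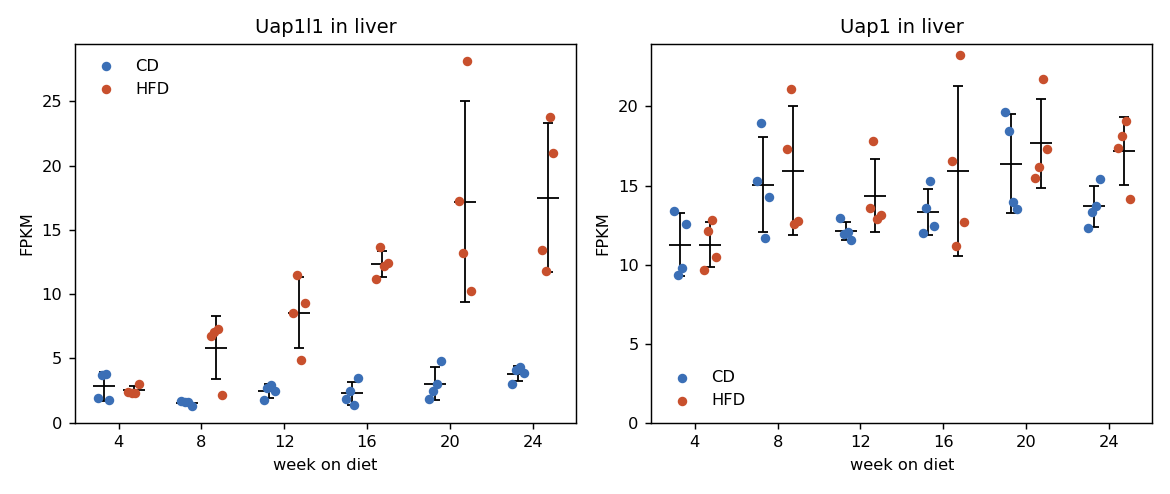
FPKM of Uap1l1 (left) and Uap1 (right) in each liver library by week on diet, with CD in blue and HFD in orange. Each point is 1 mouse, and the black bars give the mean and SD of 4 mice. Uap1l1 in HFD livers had a mean of 2.52 FPKM at week 4 and 17.5 FPKM at week 24, while the Uap1 ranges of both diets overlapped in every week.

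The ratio of the HFD mean to the CD mean of Uap1l1 in liver was 0.888 at week 4. It was 3.76 and 3.47 at weeks 8 and 12, and then 5.39, 5.65 and 4.57 at weeks 16, 20 and 24. On the log2(FPKM + 1) scale, which understates the change of a gene as low as Uap1l1 in CD liver, the differences from week 8 to week 24 were 1.33 ± 0.29, 1.42 ± 0.22, 2.06 ± 0.17, 2.13 ± 0.31 and 1.89 ± 0.21 (SE). The difference averaged over the 6 weeks was 1.46 ± 0.11, and it grew by 0.37 ± 0.064 per 4 weeks. These are the values on which the gene was chosen, so the share of all genes called in liver in single weeks (0.0506%, 7.49%, 10.6%, 7.43%, 2.47% and 0.837% in order of week) is given only as background.

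In CD livers the mean of Uap1l1 was lowest at week 8 with 1.55 ± 0.17 FPKM (SD, n = 4) and highest at week 24 with 3.83 ± 0.588 FPKM. The HFD livers of week 24 held 17.5 ± 5.79 FPKM. By mean FPKM over the 24 CD livers, Uap1l1 ranked 7826 of the 9913 genes with a mean of at least 1 FPKM, and over the 24 HFD livers it ranked 4166 of 10214.

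Markers of several liver cell types differed between the diets on the deposited scale. In the same comparison 35.8% of all genes were called higher and 6.78% lower. Of the 9 macrophage markers, 6 were called higher and 0 lower in HFD liver, among them Cd68 with a log2 difference of 0.93 ± 0.13 and Adgre1 (F4/80) with 0.66 ± 0.11, and of the Kupffer cell genes Cd5l was called higher at 0.58 ± 0.14, while Clec4f, Timd4 and Marco were not called. The summed macrophage markers were lowest at 63.9 FPKM in CD livers and 76.8 FPKM in HFD livers and reached 340 FPKM in HFD livers. By week, their ranges in the 2 diets were apart at week 12 (126 to 302 FPKM in HFD, all above the CD livers) and week 20 (145 to 169 FPKM in CD, 222 to 340 FPKM in HFD) and overlapped at weeks 4, 8, 16 and 24. All 7 stellate and stromal markers were called higher, among them Col1a1 with 1.36 ± 0.20, and their sum ranged from 30.4 to 95.3 FPKM in CD and from 53.2 to 175 FPKM in HFD. By week, the ranges of this sum were apart at week 4 (30.4 to 48.9 FPKM in CD, 53.2 to 80.8 FPKM in HFD). They were also apart at weeks 12 and 16, and they overlapped at weeks 8, 20 and 24. Of the 9 hepatocyte markers, Cps1, Fgb and Tat were called lower and 0 were called higher. Endothelial markers gave 0 calls among 7, of which 3 had an unadjusted p under 0.05. Of 3 tested duct markers Spp1 was called higher (0.39 ± 0.15), while Krt19 (-0.20 ± 0.12) and Sox9 (-0.14 ± 0.073) were not called. T and B cell markers summed to at most 3.10 FPKM in liver, with Cd3e, Cd8a and Ms4a1 under 0.1 FPKM in at least 24 of the 48 livers. The part of these cells in the liver difference of Uap1l1 was not tested.

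Uap1 gave no call for HFD in the same liver libraries. The 24 CD livers held 9.36 to 19.6 FPKM with a median of 13.3 FPKM, and the 24 HFD livers held 9.68 to 23.2 FPKM with a median of 14.8 FPKM. The difference averaged over the 6 weeks was 0.15 ± 0.067 on the log2 scale, with a 95% interval of 0.01 to 0.29 and a limma adjusted p of 0.071. This p was close enough to the threshold that it passed on leaving out any one of 7 libraries (CD101, CD205, CD501, HFD213, HFD217, HFD414 or HFD617), with adjusted p between 0.032 and 0.049, and it rose to 0.44 under median ratio scaling, where the difference was 0.07.

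In single weeks Uap1 was called in 0 of 6 liver comparisons by limma, and 1 of them, week 24, had an unadjusted p under 0.05. At week 24 the CD livers held 12.3, 13.3, 13.7 and 15.4 FPKM and the HFD livers held 14.1, 17.4, 18.1 and 19.1 FPKM. Of the HFD livers 3 were above all CD livers and the lowest lay inside their range (difference 0.30 ± 0.11, adjusted p = 0.24). The smallest difference was at week 4 (0.01 ± 0.14, adjusted p = 0.99), where both means were 11.3 FPKM.

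The HFD effect on Uap1 did not change detectably with week. The linear change of the effect was 0.05 ± 0.039 per 4 weeks in liver (95% interval -0.03 to 0.13, adjusted p = 0.72), in a comparison that called 0.285% of all genes. In CD livers alone Uap1 changed by 0.05 ± 0.028 per 4 weeks (adjusted p = 0.16), where 28.3% of genes were called, and in HFD livers alone it rose by 0.10 ± 0.028 per 4 weeks (adjusted p = 0.0082), where 27.3% were. The difference between these changes is the effect change given first, which was not called.

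RefSeq gives a start-site window for Uap1, 250 bases before the start and 50 after it, on GRCm38.p6 at chr1:170174915-170175214 on the minus strand. It is printed here as the start-site sequence of the member that gave no call in liver. The capitals mark the letters TGACGT.

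Uap1: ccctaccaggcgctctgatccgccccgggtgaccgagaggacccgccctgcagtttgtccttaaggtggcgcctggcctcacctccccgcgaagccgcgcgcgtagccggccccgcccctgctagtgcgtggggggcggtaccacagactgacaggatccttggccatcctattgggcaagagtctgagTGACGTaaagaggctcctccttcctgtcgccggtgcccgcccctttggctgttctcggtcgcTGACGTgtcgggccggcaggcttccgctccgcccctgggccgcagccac

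The window has 69.0% G and C. Searched on both strands, it holds TGACGT, the core of ATF and CREB elements, at 2 places, the CCAAT box at 1 place on the reverse strand and the GC box GGGCGG at 6 places. It holds no E-box CACGTG, no nuclear receptor half-site AGGTCA and no TATA box TATAAA. No motif overlapped another. Of the 32851 windows of this length in the table, 7.5% hold TGACGT, 37.4% CCAAT, 35.7% GGGCGG, 7.2% CACGTG, 16.3% AGGTCA and 13.6% TATAAA. These are matches of letters, and binding was not measured.

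**Figure D2:**
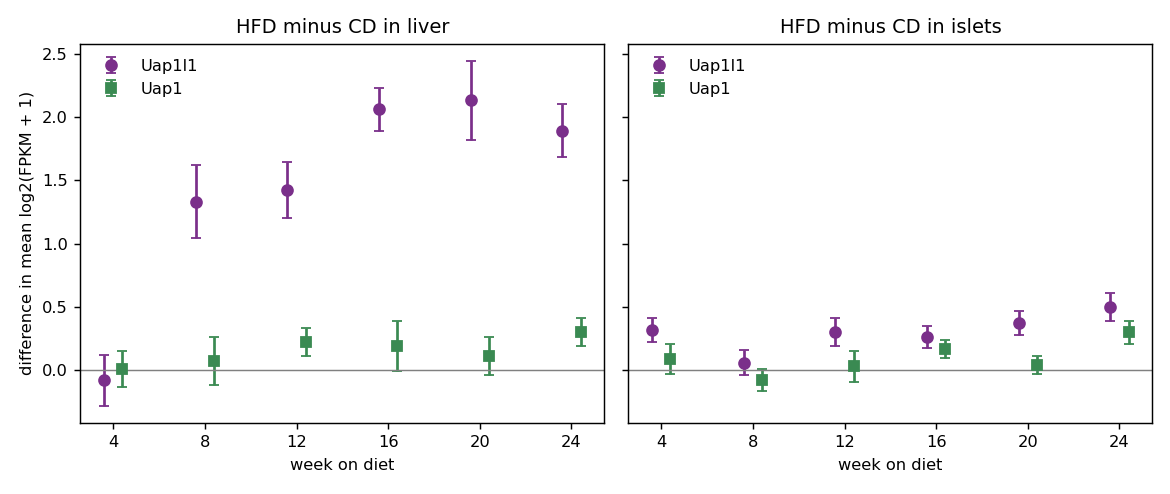
Difference in mean log2(FPKM + 1) between HFD and CD for Uap1l1 (purple circles) and Uap1 (green squares) by week in liver (left) and islets (right). Bars are the SE of each limma fit of 4 against 4 libraries. In liver Uap1l1 lay between 1.33 and 2.13 from week 8 on, while Uap1 stayed at or below 0.30 in both tissues.

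In islets Uap1l1 stood at a much higher level than in liver, and HFD islets held more of it. The 24 CD islet libraries held 16.8 to 30.8 FPKM with a median of 21.0 FPKM, and the 24 HFD islet libraries held 16.0 to 37.1 FPKM with a median of 26.8 FPKM. The difference averaged over the 6 weeks was 0.30 ± 0.046 on the log2 scale (95% interval 0.21 to 0.40, limma adjusted p = 1e-06), and 16.6% of all genes were called higher and 22% lower in this comparison. It kept its call on leaving out each of the 48 libraries and in 6 other settings, with differences between 0.29 and 0.38.

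By week, the islet difference of Uap1l1 was largest at week 24. The CD islets of week 24 held 20.4, 21.1, 27.2 and 28.1 FPKM and the HFD islets held 30.4, 33.9, 35.9 and 37.1 FPKM, without overlap. In the fits of single weeks limma called Uap1l1 in islets only at week 24 (0.50 ± 0.11, adjusted p = 0.0094, with 8.3% of genes called), and the call was lost with no filter on low FPKM (adjusted p = 0.098) and under median ratio scaling (difference 0.40, adjusted p = 0.069). Which weeks were called moved with the setting, since week 20 was called under median ratio scaling (adjusted p = 0.029) and in one fit of all 12 islet groups (0.026), and weeks 12 (0.0021) and 16 (0.001) were called with insulin left out.

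At week 20 the CD islets held 22.8, 24.6, 25.1 and 30.8 FPKM and the HFD islets held 30.4, 31.9, 36.1 and 36.2 FPKM. Only CD505, at 30.8 FPKM, reached into the HFD range (0.37 ± 0.095, adjusted p = 0.053, with 4.74% of genes called), and without it the adjusted p was 0.027. Without HFD511 it was 0.019.

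The earlier weeks gave smaller or less certain differences. At week 4 the CD islets held 18.3, 20.0, 20.7 and 25.8 FPKM and the HFD islets 24.8, 26.2, 27.4 and 27.9 FPKM (0.32 ± 0.095, adjusted p = 0.60), in a comparison in which limma called 0% of 11569 genes while 854 had an unadjusted p under 0.05. At week 8 they held 18.1, 18.8, 18.9 and 20.8 FPKM in CD and 16.0, 19.9, 22.3 and 22.3 FPKM in HFD (0.06 ± 0.096, adjusted p = 0.69, with 5.27% of genes called), and the HFD range enclosed the CD range.

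At week 12 the CD islets held 17.8, 21.2, 22.5 and 27.4 FPKM and the HFD islets 25.3, 25.9, 29.1 and 29.2 FPKM (0.30 ± 0.11, adjusted p = 0.14, with 4.53% of genes called), where CD306 alone reached into the HFD range and the adjusted p without it was 0.042. At week 16 they held 16.8, 18.3, 20.9 and 22.8 FPKM in CD and 22.3, 23.5, 23.8 and 25.3 FPKM in HFD (0.26 ± 0.086, adjusted p = 0.073, with 8.45% of genes called), and without CD407 the adjusted p was 0.023. The 4 HFD islets of week 12 and the 4 of week 16 were above all but 1 of the CD islets of their week.

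**Figure D3:**
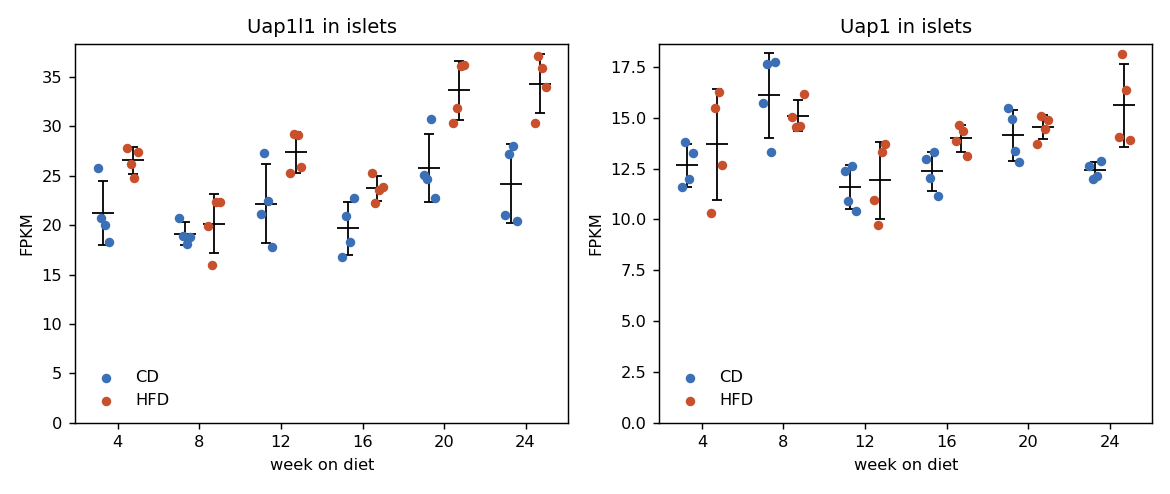
FPKM of Uap1l1 (left) and Uap1 (right) in each islet library by week on diet, with CD in blue and HFD in orange. Each point is 1 mouse, and the black bars give the mean and SD of 4 mice. Uap1l1 reached its highest means, 33.6 and 34.3 FPKM, in HFD islets at weeks 20 and 24, and the ranges of both genes separated by diet only at week 24.

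The islet effect on Uap1l1 did not grow detectably with week (0.05 ± 0.027 per 4 weeks, 95% interval 0.00 to 0.10, adjusted p = 0.24, where 5.75% of genes were called). In CD islets alone Uap1l1 rose by 0.06 ± 0.019 per 4 weeks (adjusted p = 0.018), in a comparison that called 36.7% of genes, and in HFD islets alone by 0.11 ± 0.019 (adjusted p = 8.3e-06), where 56.3% were called.

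Markers of islet cell types differed between the diets as well. In the same comparison 16.6% of all genes were called higher and 22% lower. All 4 alpha cell markers were called lower in HFD islets, with Gcg (glucagon) at -1.57 ± 0.098, and the 4 together summed to 6690 to 15100 FPKM in CD and 955 to 14300 FPKM in HFD. Both delta cell markers were called lower, with Sst (somatostatin) at -1.49 ± 0.095. Of the 10 beta cell markers 5 were called higher, including Ins1 and Iapp, and Mafa and Slc2a2 were called lower, and their sum ranged from 577000 to 853000 FPKM in CD and from 617000 to 995000 FPKM in HFD. Of the 15 acinar markers 6 were called lower, and their sum ranged from 6580 to 162000 FPKM in CD and from 4430 to 55900 FPKM in HFD. With insulin left out and each islet library rescaled to what remained, the Uap1l1 difference was 0.38 with an adjusted p of 4.1e-08. Of 5 macrophage markers 2 were called higher. The part of the other islet cell types in the difference was not tested.

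Uap1 in islets was not called for HFD on average (0.09 ± 0.041, 95% interval 0.01 to 0.17, adjusted p = 0.076). The CD islets held 10.4 to 17.8 FPKM with a median of 12.9 FPKM and the HFD islets 9.73 to 18.1 FPKM with a median of 14.4 FPKM. The call depended on the scaling, since it passed under median ratio scaling (0.09, adjusted p = 0.038) and with insulin left out (0.17, adjusted p = 0.0014), and it also passed without HFD112 (adjusted p = 0.019) or HFD315 (adjusted p = 0.036).

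At week 24 the CD islets held 12.0, 12.1, 12.6 and 12.9 FPKM of Uap1 and the HFD islets held 13.9, 14.1, 16.4 and 18.1 FPKM. The ranges did not overlap (0.30 ± 0.091, adjusted p = 0.051), and the exact two-sided permutation test of these 8 values gave 0.029, the smallest p it allows. In the other weeks the differences ran from -0.08 at week 8 to 0.17 at week 16, with overlapping ranges, and 0 of the 6 weeks were called by limma while 2 had an unadjusted p under 0.05. The effect changed by 0.04 ± 0.024 per 4 weeks (adjusted p = 0.25), and in CD islets alone Uap1 changed by -0.02 ± 0.017 per 4 weeks (adjusted p = 0.50).

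Set side by side, the tissues differed in their balance of the 2 genes. In CD mice Uap1l1 was 2.69 lower in liver than in islets on the log2(FPKM + 1) scale, given here without a test, as its liver values chose it, and it was 2.29 lower under median ratio scaling over all 96 libraries. Uap1 differed by 0.03 ± 0.057 between the tissues (95% interval -0.08 to 0.15, adjusted p = 0.56), in a comparison that called 95% of genes and in which the median gene was 0.64 lower in liver (-0.64). Relative to that shift Uap1 stood higher in liver, and under median ratio scaling its difference was 0.48 with an adjusted p of 8.8e-14, so whether it differs between the tissues depends on the scaling. The HFD effect on Uap1 in liver minus that in islets was 0.06 ± 0.080 (95% interval -0.10 to 0.22, adjusted p = 0.58), where 43.9% of genes were called.

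Of the summed FPKM of the pair, Uap1l1 made up 7.74% to 28.5% in CD livers (median 16.5%) and 51.4% to 71.5% in CD islets (median 62.5%). In HFD livers its share was 18.4% ± 3.11 (SD, n = 4) at week 4 and 49.6% ± 9.59 at week 24, and the sum of both genes was 13.8 ± 1.35 FPKM and 34.7 ± 5.93 FPKM. The CD livers of week 24 had a share of 21.8% ± 2.31 and a sum of 17.5 ± 1.67 FPKM. Uap1l1 was above Uap1 in 0 of 24 CD livers, in 5 of 24 HFD livers, all from weeks 16, 20 and 24, and in all 48 islet libraries.

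**Figure D4:**
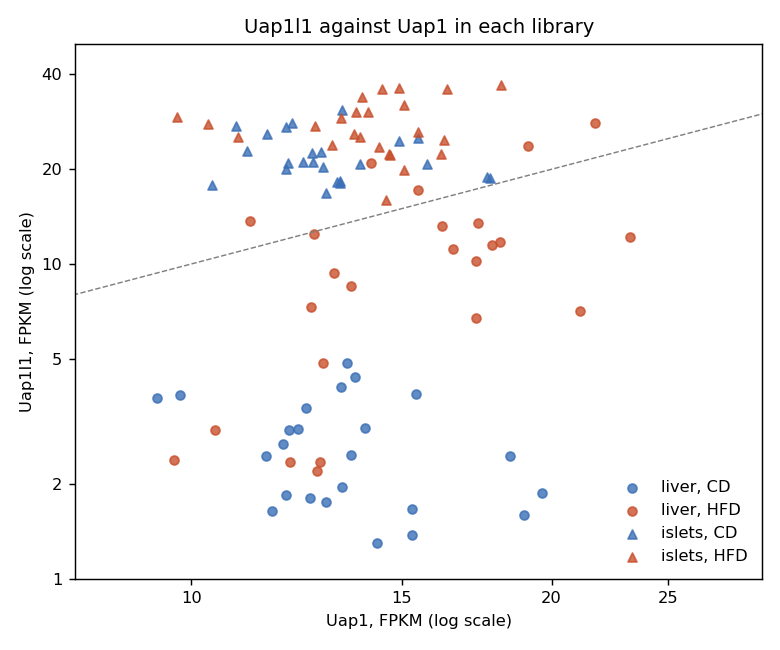
FPKM of Uap1l1 against FPKM of Uap1 in each of the 96 libraries, both on log axes. Circles are liver and triangles are islets, blue is CD and orange is HFD, and the dashed line marks equal FPKM. All islet libraries lie above the line, and HFD livers spread from 2.20 to 28.1 FPKM of Uap1l1 over much the same span of Uap1 as CD livers.

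Ordered by mean, the 12 islet groups held the 12 highest levels of Uap1l1, from 34.3 ± 2.95 FPKM in HFD islets of week 24 down to 19.1 ± 1.13 FPKM in CD islets of week 8. HFD livers followed in the reverse order of their weeks, with means of 17.5, 17.2, 12.4, 8.55 and 5.83 FPKM from week 24 back to week 8. The 6 CD liver groups and HFD livers of week 4 came last. Neighbours in this order overlapped in range throughout, with 1 exception, HFD islets of week 20 (30.4 to 36.2 FPKM) against HFD islets of week 12 (25.3 to 29.2 FPKM). The 24 group means of Uap1 ran only from 11.3 to 17.7 FPKM, and each overlapped its neighbour.

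The other genes of amino sugar and nucleotide sugar metabolism were taken as a list of 54, of which 46 passed the filter in liver. Of these, 26 were called higher in HFD livers on average and 0 lower, against 35.8% of all genes called higher and 6.78% lower. At an unadjusted p under 0.05, 28 were higher and 0 lower, where 5381 of all 10879 genes passed in either direction. The median log2 difference was 0.13 over the list and 0.08 over all genes. Under median ratio scaling 15 of the 26 kept their call, none turned, and the median of the list was 0.06 against 0 over all genes. With that scaling 2306 of 10837 genes were called higher and 1834 lower. The genes that lost their call were Gfpt1, Gnpnat1, Gnpda2, Nanp, Pgm1, Uxs1, Slc35b4, Eogt, Mgat1, Mgat5 and Oga. None of the 26 reached a log2 difference of 1.

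All 3 tested genes upstream of UAP1 in the hexosamine pathway were called higher in HFD liver, where 35.8% of all genes were. Pgm3, the phosphoacetylglucosamine mutase one step before UAP1, showed the largest difference of them at 0.71 ± 0.092 (adjusted p = 7.3e-08). It held 1.57 to 6.59 FPKM in CD livers (median 3.41) and 2.35 to 11.0 FPKM in HFD livers (median 6.66), and the diets did not overlap at week 8 (3.11 to 4.31 FPKM against 5.84 to 11.0 FPKM) and week 12 (2.19 to 3.30 FPKM against 6.24 to 7.93 FPKM). Limma called Pgm3 in those 2 weeks, at 0.95 ± 0.18 (adjusted p = 0.017) and 1.1 ± 0.11 (adjusted p = 0.0014).

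Gfpt1, which catalyses the first and rate-limiting step, was low in liver, with a median of 3.04 FPKM in CD and 3.59 FPKM in HFD, and differed by 0.28 ± 0.11 (adjusted p = 0.041). Gnpnat1, the acetyltransferase of the pathway, had medians of 30.6 and 33.0 FPKM and differed by 0.13 ± 0.052 (adjusted p = 0.046). Neither of these calls held under median ratio scaling (adjusted p = 0.12 and 0.54). By single weeks limma called Gfpt1 only at week 12 (0.66 ± 0.16, adjusted p = 0.035), where 10.6% of all genes were called. There the CD livers held 1.66 to 2.39 FPKM and the HFD livers 2.61 to 5.47 FPKM. Gnpnat1 was called in no single week. Gfpt2, the other amidotransferase, stayed at or below 0.57 FPKM in all livers and was not tested.

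Among genes that supply or interconvert the sugars, Pgm2 (Entrez 66681), a phosphopentomutase, differed by 0.52 ± 0.054 (adjusted p = 1e-09). Hk1 and Hk3, hexokinases, were called higher at low levels, with medians of at most 1.12 FPKM. Galk1, Galk2, Ugp2, Pgm1 and Uxs1 were also called higher, and Galt and Ugdh were not called.

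Of the 5 genes that salvage or break down amino sugars, 4 were called higher in HFD liver, in a comparison that called 35.8% of all genes higher. Nagk, which phosphorylates free GlcNAc, differed by 0.36 ± 0.060, the deaminases Gnpda1 by 0.38 ± 0.072 and Gnpda2 by 0.17 ± 0.060, and Renbp, the renin-binding protein that epimerises GlcNAc, by 0.34 ± 0.075. Of the sialic acid genes Nans (0.30 ± 0.090) and Nanp (0.24 ± 0.088) were called, and Gne and Cmas were not.

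Of 14 tested enzymes that use UDP-GlcNAc or UDP-GalNAc, 5 were called higher, a share near the 35.8% of all genes (Ext1 at 0.21, Galnt1 at 0.21, Eogt at 0.13, Mgat1 at 0.13 and Mgat5 at 0.10), and Ogt, the O-GlcNAc transferase, differed by 0.04 ± 0.10 (adjusted p = 0.79). Oga, which removes O-GlcNAc, was higher by 0.21 ± 0.061 (adjusted p = 0.005), a call that was lost under median ratio scaling (adjusted p = 0.058). Of the 6 nucleotide sugar transporters, Slc35b4 (0.14) was called. By single weeks the list gave 3, 10 and 4 calls at weeks 8, 12 and 16, all higher, and 0 at weeks 4, 20 and 24. At an unadjusted p under 0.05, 4 of its genes were higher and 4 lower at week 4. At week 20 these counts were 12 and 1 and at week 24 they were 9 and 1, with 43, 43 and 45 genes tested in the 3 weeks. Over all genes, 1271 of 9875, 1562 of 10184 and 1587 of 10152 passed that threshold at weeks 4, 20 and 24. The calls were 6.98%, 23.8% and 9.09% of the list at weeks 8, 12 and 16, against 7.49%, 10.6% and 7.43% of all genes, so that weeks 8 and 16 were near the background.

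**Figure D5:**
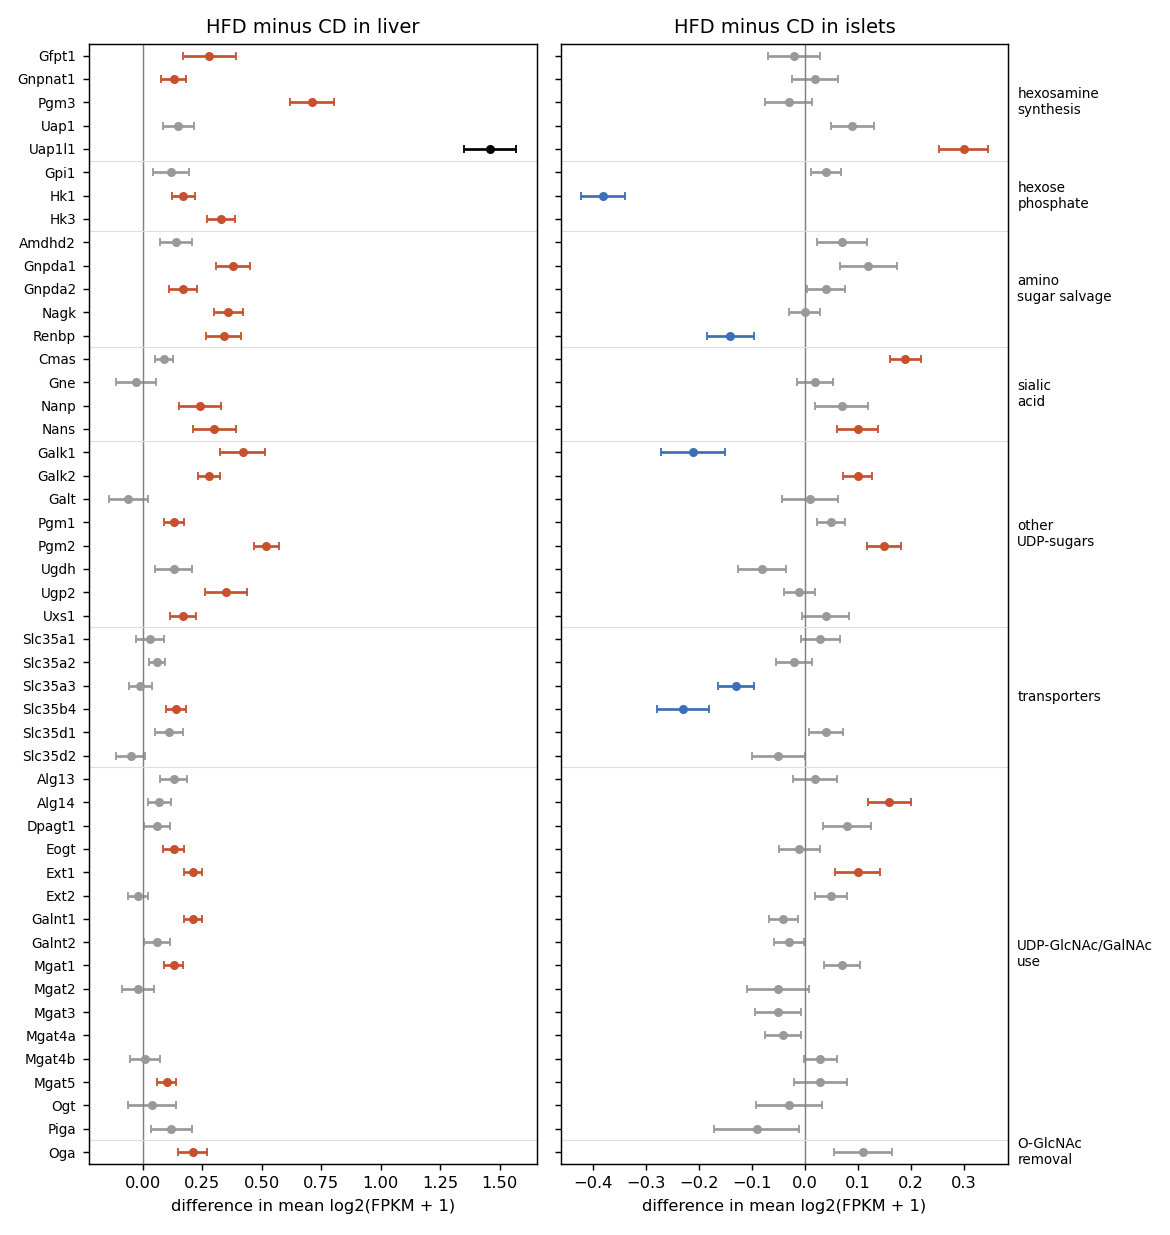
Difference in mean log2(FPKM + 1) between HFD and CD, averaged over the 6 weeks, for tested genes of amino sugar and nucleotide sugar metabolism in liver (left) and islets (right), with groups of genes divided by grey lines. Bars are SE, orange points were called higher, blue points lower and grey points were not called, Uap1l1 in liver (black) was not tested, and the scales of the 2 panels differ. Every called gene drawn in the liver panel lies to the right of 0, and the islet panel holds 6 higher genes besides Uap1l1 and 5 lower ones.

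In islets the same list did not move one way. Of 47 tested genes 6 were called higher and 5 lower, with a median difference of 0.02 against -0.01 over all genes. The calls made up 23.4% of the list, below the 38.6% of all genes (16.6% higher and 22% lower). The higher genes were Cmas (0.19 ± 0.029) and Nans (0.10 ± 0.039) of sialic acid synthesis, Pgm2 (0.15 ± 0.032), Galk2 (0.10 ± 0.028), Alg14 (0.16 ± 0.041) and Ext1 (0.10 ± 0.042), and the lower ones were Hk1 (-0.38 ± 0.042), Slc35b4 (-0.23 ± 0.049), Galk1 (-0.21 ± 0.060), Renbp (-0.14 ± 0.045) and Slc35a3 (-0.13 ± 0.034). With insulin left out of the totals 19 were higher and 3 lower, where 4442 of 12387 genes were higher and 1285 lower, and the 2 that lost their call were Renbp and Slc35a3.

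The upstream hexosamine genes differed by little in islets, with Gfpt1 at -0.02 ± 0.049 (adjusted p = 0.77), Gnpnat1 at 0.02 ± 0.043 (adjusted p = 0.68) and Pgm3 at -0.03 ± 0.044 (adjusted p = 0.58). On the deposited scale Uap1l1 was the 1 gene of hexosamine synthesis called in islets. Gfpt1 stood at a median of 88.3 FPKM in CD islets against 3.04 FPKM in CD livers, and Pgm3 at 13.1 FPKM against 3.41 FPKM, while Gnpnat1 was lower in islets, with 10.9 FPKM against 30.6 FPKM.

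The genes whose liver pattern was most like that of Uap1l1 were taken by Pearson correlation of log2(FPKM + 1) over the 48 liver libraries, which share diet and week groups, among 9981 other genes. They were Hexa, the alpha subunit of lysosomal hexosaminidase (r = 0.93), Cidec, a lipid droplet protein (r = 0.93), Ly6d (r = 0.93), the lysosomal and endosomal tetraspanin Cd63 (r = 0.91) and Kctd17 (r = 0.91). The lowest were Cyp2c29 (r = -0.85), Mup3 and Ces2a (both r = -0.82), all of them genes of hepatocytes. Uap1 had r = 0.43 with Uap1l1 over the same 48 libraries, 0.61 over the 24 HFD livers and -0.35 over the 24 CD livers. Cidec had a median of 1.06 FPKM in CD livers and 35.4 FPKM in HFD livers.

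The values of these genes in the HFD mice that stood out are part of the correlations that picked them, and are given to show their size. HFD217, the low liver of week 8, held 3.66 FPKM of Cidec, 1.45 of Ly6d and 4.27 of Cd63, against 35.8 to 47.8, 21.4 to 25.5 and 11.4 to 15.6 FPKM in the other livers of its group, and its Mup3, 11271 FPKM, was above their 4490 to 6154 FPKM. HFD316, the lowest HFD liver of week 12, held 7.95 FPKM of Cidec and 1.43 of Ly6d, the lowest of its group for both. HFD517, with the highest Uap1l1, held 67.6 FPKM of Cidec, 153 of Ly6d, 63.0 of Cd63 and 32.0 of Cyp2c29, and was the highest of its group for the first 3 and the lowest for the fourth.

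With group means removed, the closest genes to Uap1l1 in liver were Colgalt1, a collagen galactosyltransferase (r = 0.84), the galactokinase Galk1 (r = 0.82), Ucp2, Tspan17 and the lysosomal prosaposin gene Psap (each r = 0.80). Uap1 was not among them, with r = -0.01 in liver and -0.11 in islets. For Uap1 itself the closest in liver were Osbp, a sterol-binding protein (r = 0.89), Gfpt1 (r = 0.87) and Piga, which adds GlcNAc in GPI anchor synthesis (r = 0.86), and in islets Rwdd4a, Yipf5 and Dld (each r = 0.84). Gfpt1 had r = 0.69 with Uap1 in islets. These correlations are a description over 48 libraries per tissue, whose depth is not known.

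Liver and islets of the same mouse were compared over the 48 mice. Uap1l1 in liver and in islets had r = 0.63, and 0.01 once the group means were subtracted. Within the groups of 4 mice no correlation was seen, though a weak one was not tested for. For Uap1 the values were 0.44 and 0.23. HFD217, low in liver, held 22.3 FPKM of Uap1l1 in islets, near the top of its group.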

How the data were processed

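The authors selected poly(A) RNA, primed cDNA with random hexamers and sequenced on a BGISEQ-500. The submitters' notes name GRCm38.p5, HISAT2 2.0.4, Bowtie2 2.2.5, RSEM 1.1.12 and DESeq2, without roles. The deposited values are FPKM with 2 decimals, and the sources used here give no counts with them, so the counting error of a single value is unknown. Columns of the authors' own comparisons (fold changes, p-values, modules) and group means were not used.

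FPKM were transformed to log2(FPKM + 1) and fitted with limma 3.58.1 in R 4.3.3, using its trend and robust options. Single weeks compared 4 with 4 libraries over genes that reached 1 FPKM in 4 or more of the 8 libraries. Averages over weeks and linear changes were contrasts of the 12 diet and week means of a tissue, and tissues were compared in a fit of all 24 groups, over genes that reached 1 FPKM in 4 or more libraries. P-values were adjusted by Benjamini-Hochberg over all genes tested, and 0.05 was the threshold. The fits were tested on simulated data.

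Both members, the gene lists and the tests were chosen with earlier results of these data known. Named genes are the pair, the hexosamine genes, list genes called on average in a tissue, tissue markers, and the genes most and least like the members, and Galt, Ugdh, Gne, Cmas in liver and Ogt were named, and the change with week within HFD added, after their values were seen. Islet and liver libraries with the same number come from the same mouse, which was used as a block in one alternative, with a consensus correlation of 0.053. Replicates are separate mice. Some genes of the pathway list are counted but not reported singly or drawn here.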

Additional observations from a re-analysis of the deposited data

Results flagged for a closer look

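In 48 groups of 4 libraries, 3 held a value whose gap to its neighbour was larger than Dixon's limit for 4 values, and chance gives about 1 in 20 groups. They were Uap1l1 in the liver of HFD118 at week 4, high at 2.98 FPKM, Uap1l1 in the liver of HFD217 at week 8, low at 2.20 FPKM, and Uap1 in the liver of HFD315 at week 12, high at 17.83 FPKM. Without HFD217 the week 8 difference of Uap1l1 was 1.66 in place of 1.33.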

How the results depend on the processing

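The mean liver difference of Uap1l1 (1.46) was 1.42 to 1.51 on leaving out 1 library and 1.39 to 1.76 in 5 other settings. It was 2.46 at week 16 with a pseudocount of 0.1, and 2.51 there and 1.77 at week 8 with 0.01. At week 4 the range was -0.22 to 0.04, turning sign at 0.04. Leaving out 1 library gave 0.12 to 0.17 for Uap1 in liver and 0.08 to 0.11 in islets. For Uap1l1 in islets it gave 0.21 to 0.41 at week 12, 0.20 to 0.34 at week 16 and 0.32 to 0.46 at week 20, and for Uap1 in islets 0.23 to 0.35 at week 24, where the adjusted p was 0.03 without HFD611 and 0.044 without HFD617.

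With insulin left out, chosen in part after seeing the data, islet differences were 0.17 for Uap1, and in single weeks 0.58 (week 12) and 0.46 (week 16) for Uap1l1 and 0.35 (week 16) for Uap1, all 4 called. Median ratio scaling gave 0.09 for Uap1 in islets (called), 0.39 at week 20 (called) and 0.40 at week 24 (not called) for Uap1l1 in islets, and 0.48 for Uap1 and -2.29 for Uap1l1 between tissues. Fitting all 12 groups gave 0.37 for Uap1l1 at week 20 and 0.30 for Uap1 at week 24, both called. The latter difference of 0.30 had an exact permutation p of 0.029. That p is not adjusted over genes, though it is counted below as passing the threshold newly. With no filter Uap1l1 at week 24 was 0.50, not called. The cause of these changes was not tested.

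The pathway list in liver had 15 higher under median ratio scaling, 1 lower with no filter, and 0 at a log2 fold of at least 1. In islets 8 were lower with no filter, 19 higher and 3 lower with insulin left out, and 0 and 0 at that fold. With the mouse as a replicate block the tissue difference of Uap1 was 0.03 (adjusted p = 0.54) and the difference in HFD effect 0.06 (adjusted p = 0.56), and the block changed no call. Over all results and alternatives, 25 values passed the threshold newly and 2 lost it. Of those without a test, 2 values turned sign and 12 values or counts moved by more than their limit. The remaining 977 were counted as the same. They include differences near 0 that turned sign without a call in either setting. An example is Uap1 in liver at week 8, at 0.07, which reached -0.07 on leaving out 1 library. The deposited FPKM carry no counts, so the precision of low values is not known.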
